A study of Lathyrus oleraceus with 4 samples.

Results

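The transcripts described here are 5 defence-related probes of a pea oligonucleotide array, out of the 2234 probes it carries. They were taken by their identifiers in the array tables, namely AJ586324 (a putative basic PR1 protein), AF139018 (disease resistance response protein 230 precursor), AF525685 (an antimicrobial defensin peptide), AB087832 (class1 chitinase) and N1188 (a pathogenesis-related group 5 protein). They were chosen by their measured ratio between the shoot apical meristem (SAM) and non-meristem tissue (NM) on these same arrays, which was below 1 for 4 of them and above 1 for N1188. Their SAM/NM ratios are therefore given as a description, without a test.

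Pathogenesis-related (PR) proteins are families of plant proteins, many of them secreted or vacuolar, that accumulate after attack by fungi, bacteria or viruses, and several are also made constitutively in healthy organs. PR1 proteins are small cysteine-rich proteins that are widely used as markers of defence activation. Plant defensins, to which both AF139018 and AF525685 belong, are short peptides held together by disulphide bridges and can inhibit fungal growth. Class I chitinases cut chitin, a polymer of fungal cell walls, and carry a chitin-binding domain. Group 5 PR proteins are the thaumatin-like proteins, which include osmotin of tobacco.

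Dissected SAMs of 10-day-old garden pea were compared with NM, which was a mixture of primary stem, mature leaves and primary roots, in 4 independent collections with about 80 SAMs in each extraction. The cultivar was Torsdag, a single line grown in a greenhouse without any pathogen treatment in the labels, and leaf primordia were excluded from the dissected apices. Both tissues of a collection were hybridized to 1 sector of a chip, called an array here. Arrays 1 and 3 had Cy3 on the SAM and Cy5 on the NM, and arrays 2 and 4 the reverse. In tissue RNA of this kind, fewer cells that express a transcript and less of the transcript in each cell cannot be told apart, and a ratio against NM does not say which of stem, leaf and root carried the signal.

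In the deposited tables the channels are numbered and the dyes are not named. Channel 1 was taken as Cy5, which is the order under which the study's lists of transcripts up- and down-regulated in the SAM keep their direction. The sample labels name Cy3 first, and if that order held for the columns every sign below would be turned. Under the reading used, probes for 2 proliferating cell nuclear antigens, cyclin D and the replication protein MCM7, which mark dividing cells, were above 0 on all 4 arrays (4 of 4 probes, mean log2 SAM/NM ratios from 0.77 to 2.00), as were 17.9% of all probes. Probes for 5 photosynthesis-related transcripts, which mark green tissue, were below 0 on all 4 arrays, as were 16.8% of all probes, with means from -2.90 to -0.99. These 9 probes belong to the same lists, so their direction was fixed by that reading and is no support for it. The direction is called likely on the basis of the study's lists alone. The study also examined some transcripts by RT-PCR, which is not analysed here.

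Channel medians of the probe intensities ranged from 170.2 to 792 over the 4 arrays, and the 6 blank spots of each array from 40 to 174. On each array and channel the dimmest probe was brighter than every blank. After normalization within arrays, the correlation of the log2 ratios between arrays over the 2234 probes was between 0.681 and 0.886, a description across probes that share the arrays. The SD of a probe over the 4 arrays had a median of 0.20 on the log2 scale.

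The probe for the basic PR1 protein, AJ586324, had the most uneven signal of the 5. The SAM channel gave intensities of 806, 252, 1131 and 1319 on arrays 1 to 4, against 6957, 3589, 10079 and 5050 in the NM channel. The channels did not overlap, since the brightest SAM spot was dimmer than the dimmest NM spot. The share of all probes separated in this way was not counted, and this probe was chosen for its ratio. In the SAM channel this spot was brighter than 70.0% to 84.9% of all probes, and in the NM channel it was brighter than at least 99.1% of them on each array. Such percentiles describe the spots and not transcript levels, which cannot be compared between probes. The dimmest of its 8 values was 4.75 times the brightest blank measured in that channel.
After normalization, the log2 SAM/NM ratio of AJ586324 was -2.82, -3.19, -3.48 and -3.29 on arrays 1 to 4, with a mean of -3.19 ± 0.28 (SD, n = 4 arrays). This is a signal 9.16-fold lower in the SAM. By its mean it was the probe with rank 4 of the 2234 when ordered from the lowest ratio.

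The probe for the disease resistance response protein 230 precursor, AF139018, had SAM intensities of 596, 292, 901 and 1552 on arrays 1 to 4 and NM intensities of 1275, 1360, 2373 and 2182. On each array the NM spot was the brighter, although the SAM spot of array 4 was brighter than the NM spots of arrays 1 and 2. Its log2 SAM/NM ratio was -1.31, -1.42, -2.01 and -1.72, with a mean of -1.61 ± 0.32 (SD, n = 4 arrays), a signal 3.06-fold lower in the SAM.
The defensin peptide probe AF525685 gave 380.5, 133, 436 and 694 in the SAM channel on arrays 1 to 4, against 455, 722, 666 and 1072 in the NM channel. The NM spot was the brighter on each array, but the SAM spot of array 4 was brighter than the NM spots of arrays 1 and 3. In the SAM it lay above 29.9% to 41.8% of all probes and in the NM above 75.7% to 86.4%. Its smallest margin over the brightest blank was 2.51 times, in the SAM channel of array 2. The log2 SAM/NM ratio was -0.87, -1.29, -1.34 and -1.51, with a mean of -1.25 ± 0.27 (SD, n = 4 arrays), or 2.38-fold lower in the SAM. With the blanks taken as background the mean was -1.86.
Between these 2 defensin probes, AF139018 had the lower ratio on each array. The difference AF139018 minus AF525685 was -0.44, -0.13, -0.67 and -0.22 on the log2 scale, with a mean of -0.36 ± 0.24 (SD, n = 4 arrays). It compares separate probes whose listed names carry the same number. Whether they stand for the same gene was not tested. Probe sequences were not used here, so how far either probe binds the transcript of the other was not tested.

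The class1 chitinase probe AB087832 had bright spots in both tissues. The SAM channel gave 1837, 961, 3361 and 6238 on arrays 1 to 4 and the NM channel 5677, 4630, 7257 and 6304. It was brighter than at least 95.4% of all probes in the SAM and at least 99.3% in the NM. The NM spot was the brighter on each array, and the SAM spot of array 4 was brighter than the NM spots of arrays 1 and 2. On array 4 the 2 channels were nearly equal as deposited, a SAM/NM ratio of 0.989. The SAM channel of that array was the brighter one for probes in general, with a median of 792 against 467 in the NM channel, and the normalized log2 ratio there was -1.59. The values on the other arrays were -1.19 on array 1, -1.83 on array 2 and -1.26 on array 3. The mean of the 4 was -1.47 ± 0.30 (SD, n = 4 arrays), a signal 2.77-fold lower in the SAM. When only GenBank-derived probes defined the curve, its mean was -0.70.

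**Figure D1:**
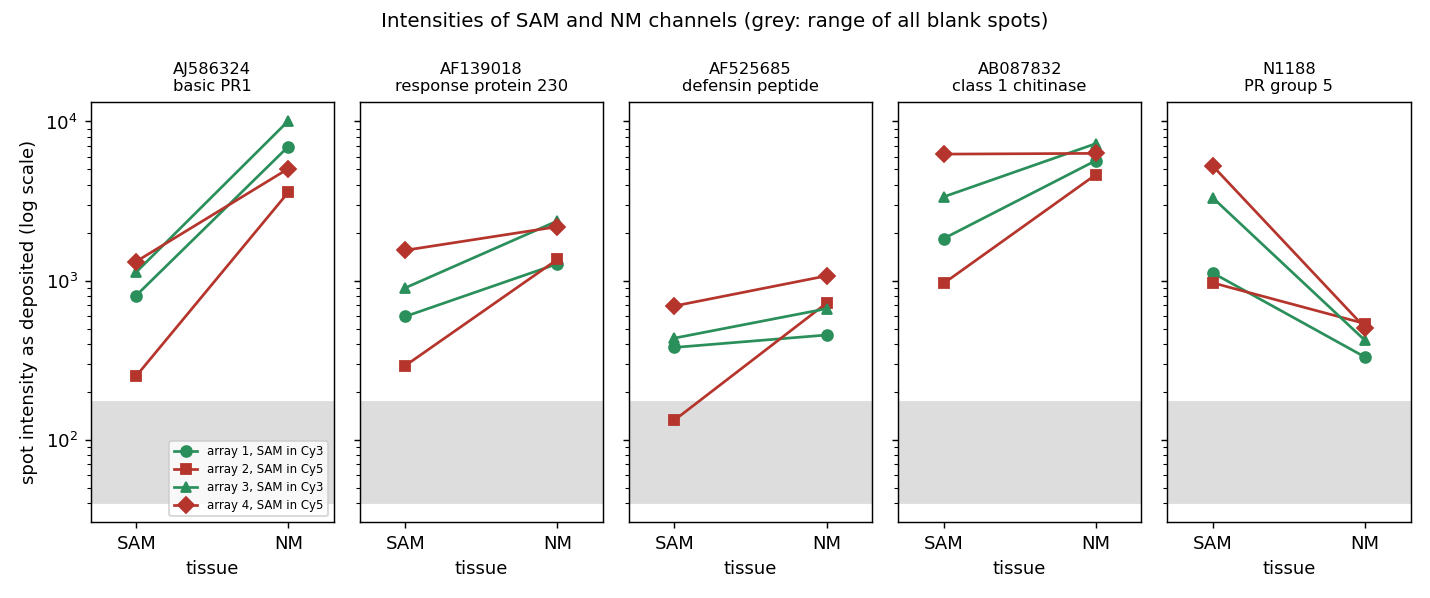
Deposited spot intensities (log axis) of the 5 defence probes in the SAM and NM channels, with a line for each array, coloured by the dye of the SAM channel. The grey band spans the blank spots of all arrays, from 40 to 174. The SAM spot of AF525685 on array 2, at 133, lies in the band but is 2.51 times the brightest blank of that channel on array 2.

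The group 5 PR probe N1188 ran the other way. N1188 is a clone of the normalized SAM cDNA library, and its annotation comes from the best protein match of the transcript EX571142, a group 5 protein of a Brassica species. The tables name library probes by clone and do not pair them with EX accessions. The clone was assigned to EX571142 through the ratio and adjusted p-value listed for that accession, so its direction is no independent evidence. The intensities were 1117, 968, 3315 and 5254 in the SAM channel of arrays 1 to 4, against 331, 537, 422 and 507 in the NM channel. Every SAM spot was brighter than every NM spot, a separation that was not counted over all probes. In the SAM it lay above 92.7% to 95.6% of all probes and in the NM above 55.6% to 69.6%.
Its normalized log2 SAM/NM ratio was 1.36, 1.59, 2.32 and 2.19 on arrays 1 to 4, with a mean of 1.86 ± 0.46 (SD, n = 4 arrays), or 3.64-fold higher in the SAM. The SD was above that of 92.2% of all probes, the widest spread of the 5. Arrays 3 and 4 gave ratios of 4.98 and 4.55, and arrays 1 and 2 gave 2.56 and 3.02, a split that does not follow the dyes.

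In the fit over all probes, 7.34% were called lower in the SAM (164 of 2234, limma adjusted p under 0.05 and a ratio below 0.7) and 9.76% were called higher (218 of 2234, ratio above 1.3). Among the 553 GenBank-derived probes, which include the 4 lower ones, 18.6% were called lower and 5.24% higher, and among the 1095 probes of the normalized library, which include N1188, 4.75% were called higher. The 4 lower probes and N1188 passed the limits of their direction, as the way they were chosen required, and nothing is read from this. Apart from AJ586324, the probes ranked 39 (AF139018), 44 (AB087832) and 62 (AF525685) from the lowest mean ratio, and N1188 ranked 20 from the highest. With the normalization curve through the GenBank-derived probes, the split over all probes was 408 called higher and 107 called lower.

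**Figure D2:**
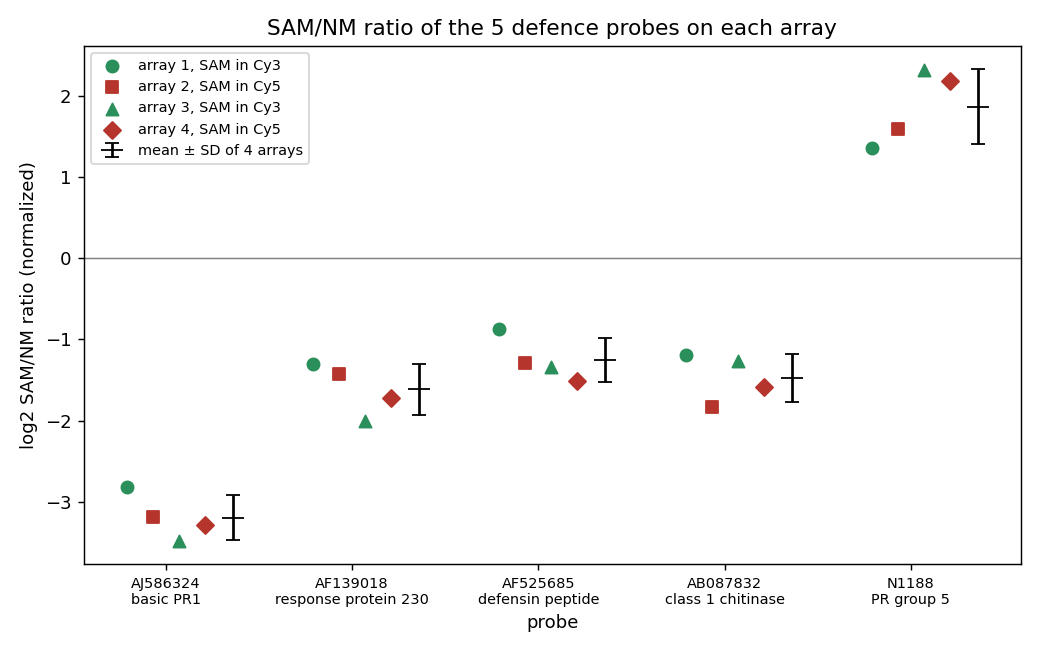
Normalized log2 SAM/NM ratio of each of the 5 defence probes on each array (symbols, coloured by the dye of the SAM channel), with the mean and SD of the 4 arrays beside them. AJ586324, AF139018, AF525685 and AB087832 were below 0 on all 4 arrays, as were 16.8% of all probes. N1188 was above 0 on all 4, as were 17.9% of all probes.

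The dyes were balanced over the arrays, so the estimate of a dye effect is separate from that of the SAM and NM contrast. In a fit without a dye term, such as the one used for the calls, a dye effect widens the spread over arrays. Probes with a large dye effect could thus be chosen less often. The dye results of the 5 are therefore not independent of how they were chosen. With an intercept for the dye added to the limma fit over all 2234 probes, 0.224% of them (5 of 2234) passed an adjusted p of 0.05 for the dye, and 23.1% passed an unadjusted one. Of the 5 defence probes, 0 passed the adjusted limit in limma, with adjusted p-values between 0.141 and 0.943, and 1 passed the unadjusted one. This was the chitinase probe AB087832 (log2 Cy5/Cy3 effect -0.24, standard error 0.07, unadjusted p = 0.0182 in limma's test). Its mean log2 SAM/NM ratio was -1.71 on the arrays with SAM in Cy5 and -1.23 on those with SAM in Cy3. For AJ586324 these means were -3.24 and -3.15, for AF139018 -1.57 and -1.66, for AF525685 -1.40 and -1.10, and for N1188 1.89 and 1.84. All 5 kept their direction in both orientations, which their choice by the ratio on these arrays made likely. The share of all probes that did so was not counted, and nothing is read from this. The missed threshold does not show that dye effects were absent, since each orientation had 2 arrays.

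The positions of the spots were also examined, because AF139018 and AJ586324 are diagonal neighbours on the array, at column 39, row 10 and column 40, row 11. The 24 probes within 2 columns and 2 rows of a spot had a median of their mean log2 SAM/NM ratios of -0.03 around AJ586324, -0.03 around AF139018, 0.07 around AF525685, -0.04 around AB087832 and 0.00 around N1188. Single neighbours spread widely, with means from -1.61 to 2.13 around AJ586324, -3.19 to 1.58 around AF139018, -1.78 to 2.13 around AF525685, -1.84 to 1.75 around AB087832 and -2.25 to 3.21 around N1188. The lowest neighbours of AJ586324 and AF139018 were each other. Whether position had a part in the ratios was not tested by these values.

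For each probe, the 2 others with the smallest root mean square difference over the 4 log2 SAM/NM ratios were taken from all 2233 other probes. This measure uses the same ratios and 4 arrays, and says nothing of shared function or control. Nearest to AJ586324 were AJ243307, annotated as a plasma membrane intrinsic protein, a family of water channels (mean -2.97, difference 0.26), and AF053639, for which no name is given here (mean -3.05, difference 0.45). Nearest to AF139018 were the clone C0075, assigned to a catalase transcript (mean -1.76, difference 0.17), and the non-specific lipid transfer protein Y14560 (mean -1.57, difference 0.33). Nearest to AF525685 were AJ621355, a KORRIGAN-type endoglucanase of cell wall synthesis (mean -1.30, difference 0.15), and C0342, assigned to an unnamed protein (mean -1.28, difference 0.16).
AB087832 was nearest to AB189165, a copper zinc superoxide dismutase (mean -1.42, or -0.88 with the curve through the GenBank-derived probes, difference 0.28), and to AF107404, sophorol reductase of the pisatin pathway (mean -1.47, difference 0.29). The profile of N1188 was closest to a pair of histone clones, C0243, assigned to a histone H2B (mean 1.91, difference 0.11), and S0497, assigned to a histone H4 (mean 1.75, difference 0.14). These differences were smaller than those found for any of the other 4 probes.

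**Figure D3:**
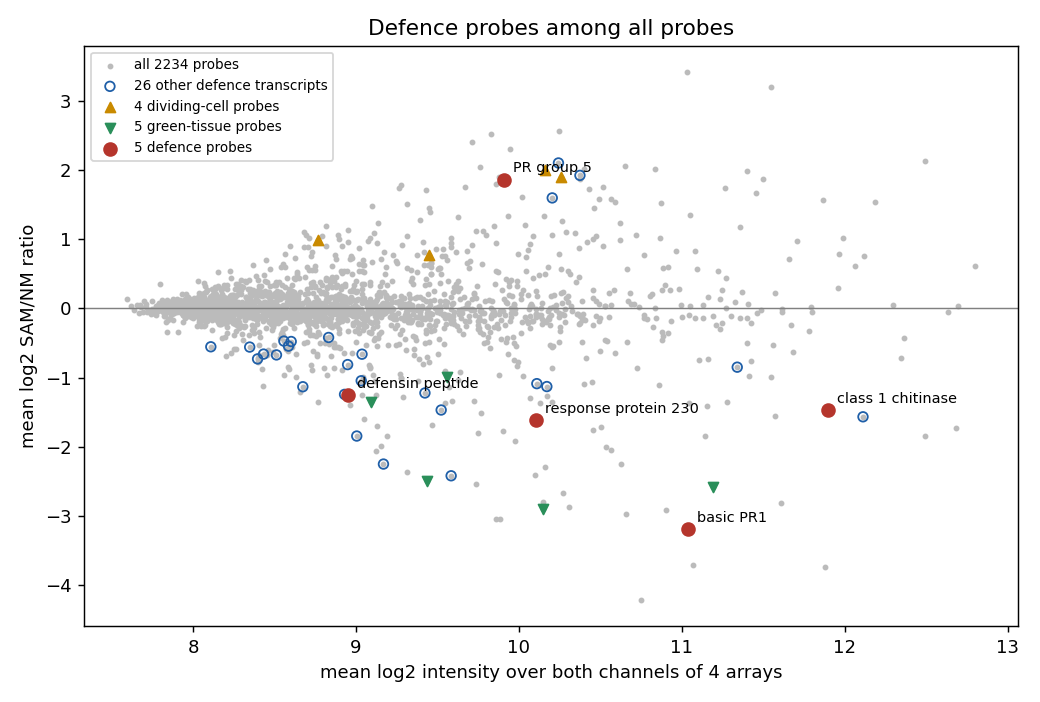
Mean log2 SAM/NM ratio against mean log2 intensity for all 2234 probes (grey), with the 5 defence probes, 26 other defence transcripts and the probes for dividing cells and green tissue marked. N1188 lies among the dividing-cell probes by ratio (1.86), and the basic PR1 probe (-3.19) lies below the lowest green-tissue probe (-2.90).

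A further 26 transcripts were grouped with defence here, by what their annotated products are known to do, and the study itself places several of them in other classes. All 26 come from the transcripts that the study listed as changed on these arrays, so their counts describe the list and are no independent evidence of its direction. Of the 26, 20 were called lower in the SAM, against 7.34% of all probes and 18.6% of GenBank-derived probes, 3 were called higher, against 9.76% of all probes, and 3 passed the adjusted p but not the limits on the ratio. The count called lower was 14 with the curve through the GenBank-derived probes, where AF115574, X52225, AJ250833, AF175277, AF175278 and AF153061 lost the call, and 2 without normalization. Their median log2 SAM/NM ratio was -0.77, against a median of 0.00 over all probes and of -0.09 over GenBank-derived probes.
Of the 3 other PR proteins, all were called lower, against 7.34% of all probes. X52225, listed as pI230, had -0.85 ± 0.21 (SD, n = 4 arrays, limma adjusted p = 0.00109). Its listed name carries the same number as those of AF139018 and AF525685. These had the lower means of -1.61 ± 0.32 and -1.25 ± 0.27 (SD, n = 4 arrays each). Whether any of these probes stand for the same gene was not tested. X52225 lost the call with arrays centred on the median (-0.84), with the curve through the GenBank-derived probes (-0.26) and without normalization (-0.56). The unclassified PR protein AF115574 had -0.66 ± 0.50 (SD, n = 4, limma adjusted p = 0.0383). AF115574 was not called without array 2 (-0.54), without array 4 (-0.49) or with arrays centred on the median (-0.65).
PR protein 4A (AF137351), of a family that includes chitin-binding proteins, had a mean of -2.42 ± 1.42 (SD, n = 4 arrays, limma adjusted p = 0.00762) and was the only one of the 26 whose dye effect passed the adjusted limit. Its SAM intensities were 488, 160 and 456 on arrays 1 to 3 and 562 on array 4, against 838, 2980, 659 and 3643 in the NM. The log2 ratios were -3.46 and -3.83 on the arrays with SAM in Cy5, and -1.15 and -1.26 on those with SAM in Cy3. NM gave the brighter spot on all 4 arrays, but the size of the difference depended on the orientation. The dye effect of AF137351 was -1.22 on the log2 Cy5/Cy3 scale (standard error 0.09, limma adjusted p = 0.0196), and AF115574 split the same way, with means of -1.09 with SAM in Cy5 and -0.23 with SAM in Cy3 (limma adjusted p for the dye = 0.0862). Of the 26, 11 passed the unadjusted limit for the dye in limma, against 23.1% of all probes.

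Hydrolases and small secreted proteins did not all run one way. The UV-B-inducible glucanase AY065658 was called lower (mean -1.85 ± 0.36, SD, n = 4 arrays). Of 4 lipid transfer and inhibitor transcripts, 1 was called lower, against 7.34% of all probes, and 3 were called higher, against 9.76%. They too come from the study's lists of changed transcripts. The non-specific lipid transfer protein Y14560, of a family that carries lipids and includes antimicrobial members, was the lower one, with a mean of -1.57 ± 0.39, or -0.72 with the curve through the GenBank-derived probes. The higher ones were C0336, assigned to another lipid transfer protein (2.10 ± 0.38), X67427, of the protease inhibitor and lipid transfer family (1.93 ± 0.70), and S0077, assigned to a Kunitz protease inhibitor (1.60 ± 0.43; SD, n = 4 arrays each). All 3 were above 0 on every array, as were N1188 and 17.9% of all probes.

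Pisatin is the main phytoalexin of pea, an antifungal isoflavonoid made on infection. Of 7 listed transcripts for phenylpropanoid and pisatin synthesis, 5 were called lower, against 7.34% of all probes, and all 7 were below 0 on each array, against 16.8% of all probes. The 7 come from the study's lists of changed transcripts, so these counts do not speak for the enzymes of the pathway as a whole. They are also not 7 separate enzymes, since AF175277, U29243 and the clone N1417 share the annotation of trans-cinnamic acid hydroxylase. Isoflavone synthase (AF532999), at the entry to the isoflavonoid branch, had the lowest mean, -2.25 ± 0.89 (SD, n = 4 arrays), with -1.32 on array 1 and -3.47 on array 4. Sophorol reductase (AF107404) had -1.47 ± 0.50 and 6a-hydroxymaackiain methyltransferase (U69554), which makes pisatin in the last step, had -1.22 ± 0.49 (SD, n = 4 each). The 2 not called were chalcone isomerase (U03433, a ratio of 0.747) and the cinnamic acid hydroxylase U29243 (a ratio of 0.718), which missed the limit on the ratio. Without array 3, U29243 was called lower (-0.52) and its relative AF175277 was not (-0.51). The clone N1417, assigned to the same enzyme, was called lower over all arrays, with -1.13 ± 0.07 (SD, n = 4 arrays).
All 3 listed germin-like proteins, which are cell wall proteins, were called lower, against 7.34% of all probes. A peroxidase (AB087838), an enzyme that consumes hydrogen peroxide, was called lower as well. The means of these transcripts ranged from -1.24 to -0.56. Of these, the germin-like protein AJ250833 was not called without array 2 (-0.56) or without array 4 (-0.38). It also lost the call with arrays centred on the median (-0.55) and with a trend over columns and rows removed (-0.54). Of 5 listed transcripts for oxylipins and wounding, 4 were called lower, against 7.34% of all probes. Lipoxygenase LoxN3 (AF098270) had -1.13 ± 0.33 and the clone N0805, assigned to an oxophytodienoic acid reductase, had -1.09 ± 0.39 (SD, n = 4 each). The alpha-dioxygenase AJ784963, not called over all arrays, was called lower without array 1 (-0.54), and the wound-inducible AF175278 was not called without array 4 (-0.46). The hsr203J homolog AB026296, named for a gene of the hypersensitive response in tobacco, had -0.73 ± 0.33, and MAP kinase 3 (AF153061), a signalling kinase, had -0.66 ± 0.23 (SD, n = 4 each), and both were called lower.

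**Figure D4:**
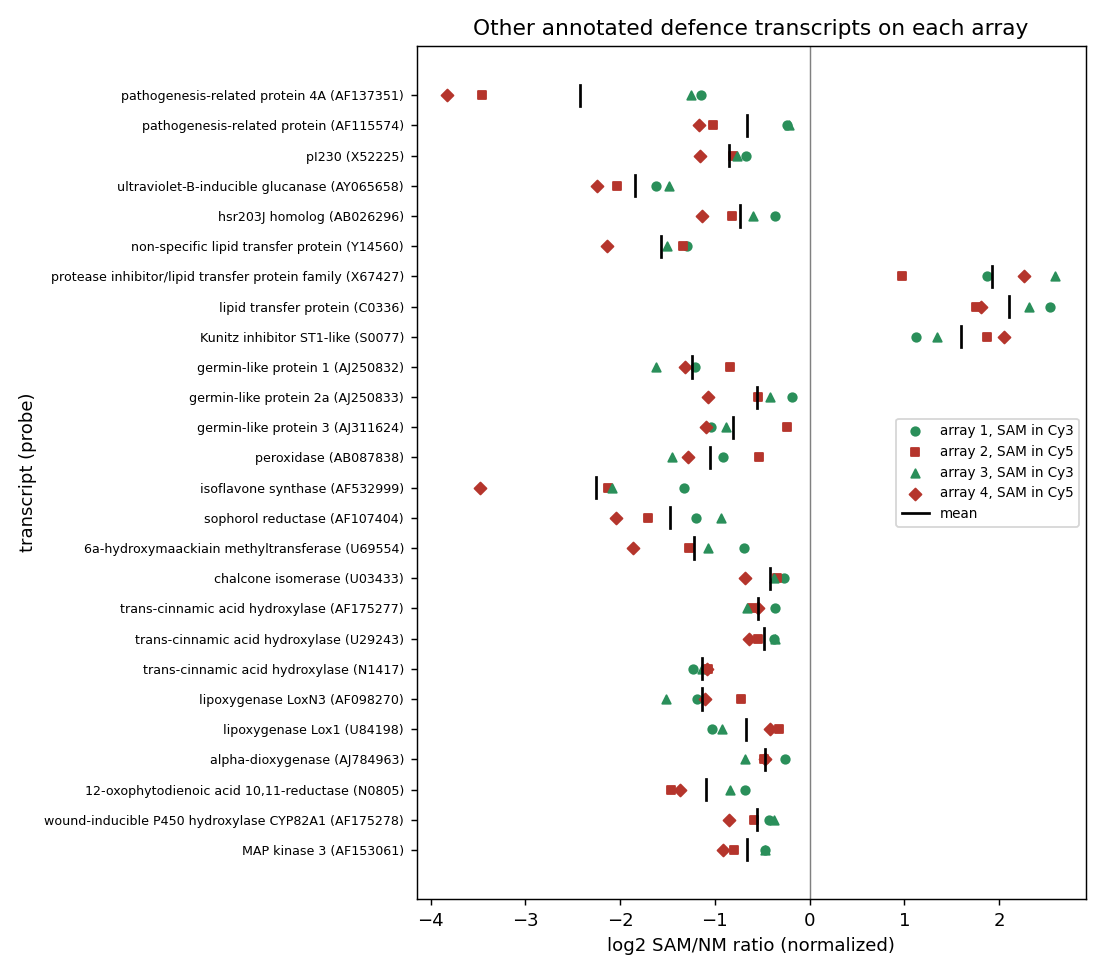
Normalized log2 SAM/NM ratio of the 26 other transcripts grouped with defence on each array (symbols, coloured by the dye of the SAM channel), with the mean as a black bar. The 3 transcripts right of 0 on all arrays are a lipid transfer protein, a member of the protease inhibitor and lipid transfer family and a Kunitz inhibitor, and AF137351 shows the widest gap between the dye orientations.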

How the data were processed

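The authors scanned a CombiMatrix chip of 4 sectors with a GenePix scanner and quantified it with Microarray Imager, and deposited 1 intensity per spot and channel for each array, with no background value. Log2 ratios of channel 1 over channel 2 were deposited as well. A global loess of the intensities followed by scaling between arrays gave these log2 ratios to within 3.2e-08, their median was within 0.01 of 0 on each array, and they served as an alternative. The table's scale and direction, first over second channel, are thereby known and the dye of each channel is not.

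The 6 blanks were left out, and log2 ratios of 2234 probes were normalized by the robust spline of limma 3.58.1 (R 4.3.3) over the whole array without background subtraction, signed by the dyes, and fitted with lmFit and eBayes, with Benjamini-Hochberg adjustment over all probes and the limits of the methods (adjusted p under 0.05, ratio above 1.3 or below 0.7). Arrays are numbered by sample title. The unnumbered title was taken as array 1. The procedure was run on simulated data with independent noise and as many changes up as down. The simulation held no dye effects of single probes and no difference between GenBank-derived and library probes, so it does not cover these.

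Members and lists were chosen with earlier results of these data known. The probes named are the 5 members, the annotated lists and the 2 nearest probes to each member. Clones were assigned to EX accessions through the listed ratio and adjusted p-value, used for identity only. The number of arrays, 4, limits the precision.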

Additional observations from a re-analysis of the deposited data

Results flagged for a closer look

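Of 48 named probes examined for an array far from the other 3, a pair was found, where chance flags about 1 group in 20. At that rate about as many flags would be found among 48 probes, so nothing is read from the pair. Both are proliferating cell nuclear antigen probes, which mark dividing cells, and in both the value of array 3 was the distant one. AB008186 had a log2 SAM/NM ratio of 2.92 on array 3 and between 1.46 and 1.67 on the others. Y16796 had 2.84 on array 3 and between 1.60 and 1.80 on the others. None of the 5 defence probes had an array standing apart in this way.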

How the results depend on the processing

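No member changed sign in any of 15 alternatives, which their choice by the ratio on these arrays favoured. Of the 15, 1 (removing a trend over columns and rows) was chosen after seeing the data. With each array left out in turn, the mean log2 ratio lay between -3.32 and -3.10 for AJ586324, -1.72 and -1.48 for AF139018, -1.38 and -1.16 for AF525685, -1.56 and -1.35 for AB087832, and 1.71 and 2.03 for N1188. With the curve drawn through the GenBank-derived probes, AJ586324 had -2.67 and AB087832 -0.70, and 107 probes were called lower and 408 higher. With the blanks as background, AJ586324 had -3.57 and AF525685 -1.86. Without normalization 31 probes were called lower and 49 higher, and 2 of the 26 other defence transcripts were called lower. With arrays centred on the median, 136 were called lower and 128 higher. Dye effects numbered 2 with loess and 0 without normalization, against 5. The cause of these shifts was not tested. Of 558 values of the other named probes under the alternatives, 0 turned their sign, 42 lost and 5 gained the call. The 3 other defence transcripts called higher stayed at a count of 3 in all alternatives with a test. The fit was paired by design, since the ratio of each array sets both tissues of a collection against each other. The 4 arrays form 1 group.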
